A study of Mus musculus with 12 samples.

Results

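CD8 T cells taken from mouse brain 3 days after stroke were compared with CD8 T cells taken from the brains of naive mice, the study's uninjured controls. The comparison uses 6 of the 12 RNA-seq libraries of the study, with 3 replicates labelled naive mouse brain and 3 labelled as brain at 3 days post-stroke. A gene was included when it reached at least 1 CPM in at least 3 of these 6 libraries, which kept 19063 of the 23937 genes in the table. CPM values are read counts divided by a library size that the authors had scaled. Levels of a gene can be compared between libraries as far as that scaling holds, and levels of genes of different length cannot be compared. The gene nearest to the limit on the inside was Khdc1a, for which 3 libraries reached at least 1.07 CPM, and on the outside Hist1h2bh, for which 3 reached at least 0.993 CPM.

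Both groups are labelled as CD8 T cells of mouse brain, isolated by fluorescence-activated cell sorting and lysed directly for an ultra-low input cDNA kit. The protocol text speaks of spleens where the sample labels speak of brain, and samples were grouped by their labels. The strain, genotype, sex and age of the mice, the way in which the stroke was made, the brain region, any sham operation, the sorting gate and the number of animals behind a sample were not stated in the labels or protocols used here. Whether the 3 samples of a group are 3 mice is not stated either, so a p-value reflects the scatter among these libraries, which may be technical. The other 6 libraries, from brain at 30 days and from naive blood, enter only through the estimate of the spread.

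CD8 T cells detect peptides on MHC class I molecules with a T cell receptor, whose CD3 chains and CD8 co-receptor pass the signal to the kinases Lck and Zap70. They kill target cells with granule proteins such as granzymes and perforin and release interferon gamma and chemokines. In injured brain, the resident microglia change their gene expression and monocytes enter from the blood and become macrophages, which take up debris and secrete matrix-binding proteins such as osteopontin.

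The 6 libraries differed in depth and in background, partly along with the groups. Naive brain replicates 1, 2 and 3 held 3469973, 14884783 and 21014171 reads, and day 3 replicates 1, 2 and 3 held 5094462, 1157538 and 1267597. Reads on 1484 smell, pheromone and taste receptor genes, a family with no known role in T cells, served as a measure of background. As CPM without the scaling factors they came to 873, 197 and 164 in naive brain and to 252, 7813 and 4641 at day 3. Day 3 replicates 2 and 3 therefore stand apart from the other 4 libraries, with high background, while day 3 replicate 1 lies within the range of naive brain. The first principal component of the 6 libraries held 53.8% of the variance and placed day 3 replicate 1 at -63.4, between naive brain replicates 1 (23.2) and 2 (-132), and day 3 replicates 2 and 3 at 178 and 135. List medians and the main genes are therefore also given for day 3 replicate 1 alone, a value that has no replicate of its own at day 3. That library lay above all 3 naive brain libraries for 3601 tested genes (18.9%) and below them for 3966 (20.8%), the background for such counts below.

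The labelled cell type was checked first. Cd8a, which encodes the alpha chain of CD8, measured 797, 1571 and 1358 CPM in naive brain and 510.4, 52.8 and 197 CPM at day 3, and the leukocyte gene Ptprc (CD45) 986, 1447 and 1636 CPM and 1071, 232 and 920.0 CPM. Cd4, which marks helper T cells, measured 2.05 to 7.94 CPM in naive brain and 8.57 to 26.8 CPM at day 3. It was low in both groups but higher in every day 3 library, as were 7.7% of all tested genes, and was not called. The 18 homeostatic microglia genes, which include P2ry12, Tmem119 and the complement C1q chains, took 3.75%, 2.34% and 5.50% of the reads in naive brain and 2.96%, 0.736% and 1.33% at day 3. Microglial transcripts were thus present in all 6 libraries. The 6 measured genes of the T cell receptor complex and CD8 took 0.432%, 0.552% and 0.462% of the reads in naive brain and 0.174%, 0.0573% and 0.132% at day 3.

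**Figure D1:**
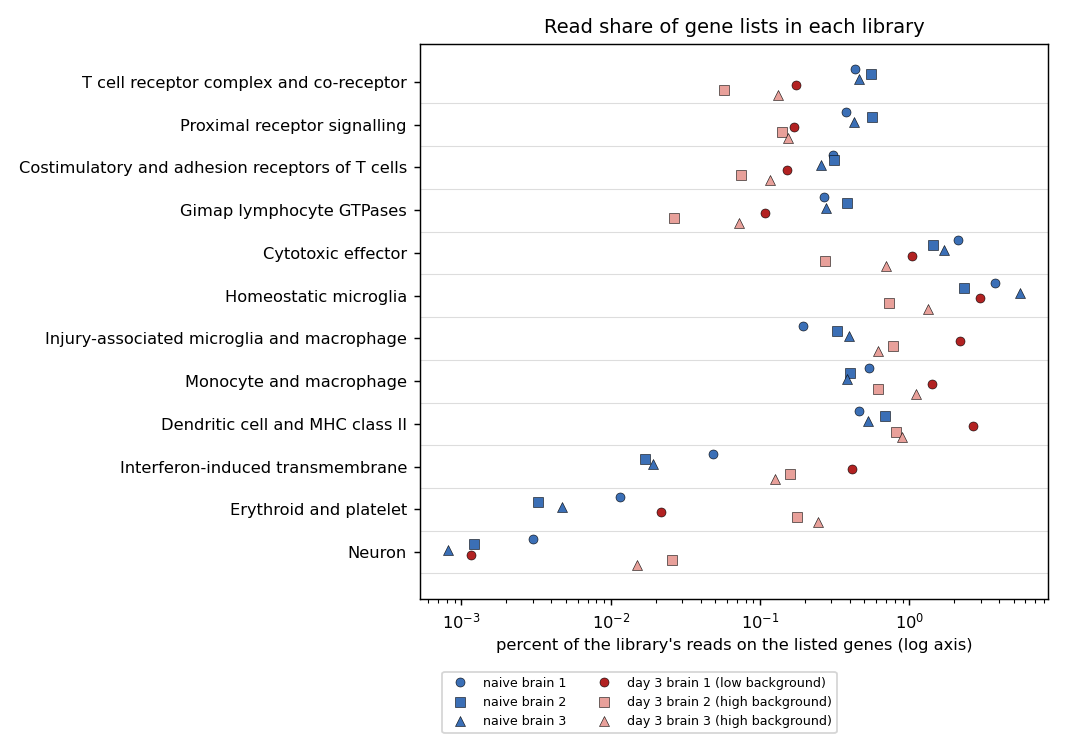
Percent of each library's reads on the genes of 12 lists (log axis), with 1 symbol per library, naive brain in blue, day 3 replicate 1 in red and the high background day 3 replicates 2 and 3 in pink. All 3 day 3 libraries lie below all 3 naive brain libraries for the T cell lists and above them for the injury-associated, monocyte, MHC class II, erythroid and interferon-induced transmembrane lists.

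In all, limma called 134 of the 19063 genes (0.703%) at an adjusted p under 0.05, 31 higher at day 3 (0.163%) and 103 lower (0.54%). The 3 day 3 libraries lay above all 3 naive brain libraries for 1468 genes (7.7%) and below them for 1895 genes (9.94%). Of the 31 higher genes 30, and of the 103 lower genes 100, were among these. These shares, and the 0.163% and 0.54% called, are the background for the counts of list members below. Absence of overlap was also a condition for naming the genes with the largest differences, so for those genes it is a description. The calls rested on single libraries to a large degree. Leaving out 1 library gave 78 calls without naive brain replicate 1, 7 without replicate 2 and 13 without replicate 3. It gave 706, 13 and 20 calls without day 3 replicates 1, 2 and 3, and 235 without day 30 replicate 1. The called genes whose groups overlapped were Ccl7 on the higher side and Ppp1r15a, H2-L and Klk8 on the lower side. Most higher genes were low in naive brain, with a median naive mean of 1.88 CPM and a highest one of 32.4 CPM (Ifitm2), and lower genes were abundant there, with a median of 535 CPM against 13 CPM over all tested genes. Direction followed abundance well beyond the called genes. Of the 3263 tested genes with a naive mean of at least 100 CPM, 3150 had a negative difference and the median was -1.39 (log2). Among these 3263 genes 96 were called lower and 0 higher. For lists of abundant genes, the 0.54% called lower over all genes is therefore too low a background. The 9012 genes under 10 CPM had a median of 1.17. With day 3 replicate 1 alone these medians were -0.25 and -0.17.

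**Figure D2:**
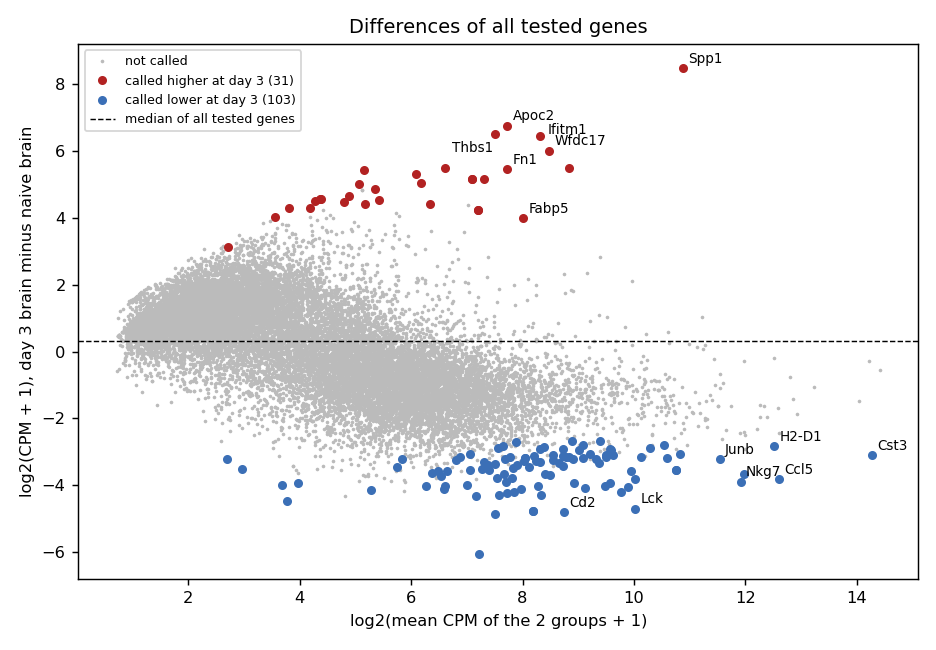
Difference of every tested gene, day 3 minus naive brain on the log2(CPM + 1) scale, against the log2 of its mean CPM plus 1 over both groups, with called genes in colour. Called higher genes (31) rise from low levels and called lower genes (103) sit mostly among abundant genes, where the grey cloud itself lies below the dashed median of all tested genes (0.32).

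A difference is given as day 3 minus naive brain on the log2(CPM + 1) scale, ± SE, a scale that understates changes at low levels. Its median over all tested genes was 0.32 with the deposited scaling, 1.07 with CPM of unscaled totals, 0.02 with quantile normalization and -0.15 with median centring. The 134 called genes, selected for large differences, kept their sign under each of these scalings. The library size factors were 0.744, 0.624 and 0.479 in naive brain replicates 1, 2 and 3 and 0.619, 1.90 and 1.47 at day 3. A larger factor lowers CPM, so the scaling itself lowered day 3 replicates 2 and 3 relative to naive brain. With unscaled totals the list median was -1.94 for T cell receptor genes, -2.19 for Gimap genes and -1.19 for cytotoxic genes. It was 2.66 for injury-associated and 2.87 for monocyte genes. Centring on the T cell receptor complex and CD8 genes instead holds the mean of those genes at 0 by construction. It moved the median of all genes to 3.48, turned 29 of the 103 lower genes to positive differences, and put the median of 31 of the 32 gene lists above 0. The negative list medians given below therefore hold for the deposited scaling and not for that centring. The Gimap genes were an exception in sign alone. Their median of -3.16 was shifted like the median of all genes, from 0.32 to 3.48, which left it close to 0.

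The gene with the largest rise was Spp1, which encodes osteopontin, a secreted phosphoprotein that macrophages of injured tissue release (chr5:104435118-104441050). It measured 5.04, 0.646 and 12.6 CPM in naive brain replicates 1, 2 and 3 and 9672, 788 and 807 CPM at day 3. All 3 day 3 libraries were far above naive brain, with replicate 1 far above the other day 3 replicates. The difference was 8.48 ± 0.97 (limma, adjusted p = 7.39e-07), and with day 3 replicate 1 alone 10.88 ± 1.47 (adjusted p = 0.00142). In the annotation Spp1 overlaps the transcript Gm42793 on its own strand, so reads of the overlap may belong to either.

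Spp1 led a list of injury-associated microglia and macrophage genes. Of its 19 tested members 4 rose, against 0.163% of all tested genes, and 0 fell. The list median was 1.81 against 0.32 over all genes. Apoc2, an apolipoprotein that activates lipoprotein lipase, measured 1.16, 0.538 and 0.397 CPM in naive brain and 1068, 34.1 and 156 CPM at day 3. It rose by 6.76 ± 1.22 (adjusted p = 0.00499), with the highest level again in replicate 1, and its reads could also come from the overlapping readthrough gene Gm44805. Fabp5, a fatty acid carrier, went from 16.3, 14.3 and 43.2 CPM to 1033, 243 and 189 CPM without overlap (4.0 ± 0.90, adjusted p = 0.0246). Gpnmb, a glycoprotein of phagocytes, went from 10.8, 0 and 2.09 CPM to 206, 175 and 34.8 CPM (5.04 ± 1.06, adjusted p = 0.0132), with day 3 replicate 3 the lowest of its group.

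The other members of that list separated by library. Apoe, the main lipid carrier of brain and macrophages, measured 469, 2385 and 3526 CPM in naive brain and 9113, 783 and 353 CPM at day 3, and did not pass the test (-0.21 ± 0.84, adjusted p = 0.886). Day 3 replicate 1 was above every naive library for Apoe, replicate 2 was within the naive range and replicate 3 below it. Lgals3, which encodes galectin 3, had 61.2, 117 and 316 CPM in naive brain and 1908, 214 and 245 CPM at day 3, with replicates 2 and 3 within the naive range (adjusted p = 0.381). In replicate 1, 18 of the 19 list members exceeded the naive range (18.9% of all tested genes did), and the list took 2.20% of its reads against 0.195% to 0.392% in naive brain. In replicates 2 and 3 the share was 0.772% and 0.617%, still above naive brain. Spp1 and Apoc2 were the 2 genes called with replicate 1 alone (0.0105% of all tested genes).

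Monocyte and macrophage genes moved the same way, with 4 of 20 higher, 0 lower and a list median of 2.0. Chil3, a chitinase-like protein of recruited monocytes and macrophages, measured 2.71, 0.431 and 0.695 CPM in naive brain and 494, 32.3 and 47.7 CPM at day 3 (5.48 ± 1.13, adjusted p = 0.0114). Ccr1, a receptor for inflammatory chemokines, had 0, 0 and 0.199 CPM in naive brain and 158, 33.7 and 16.1 CPM at day 3 (adjusted p = 0.0114). Every day 3 library was above naive brain for both genes, with replicate 1 highest. Msr1, the class A scavenger receptor, went from at most 2.32 CPM to 187, 12.7 and 37.0 CPM (4.85 ± 1.13, adjusted p = 0.0314), and Wfdc17, a small secreted protein of myeloid cells, from 38.7, 0.108 and 15.5 CPM to 1272, 299.8 and 516 CPM (6.02 ± 1.11, adjusted p = 0.00499). The groups did not overlap for either gene, a condition for the genes named by size.

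Genes used to define monocytes varied more between libraries. Ccr2, the receptor that brings monocytes into tissue, measured 78.3, 34.3 and 91.8 CPM in naive brain and 443, 44.6 and 151 CPM at day 3, and Lyz2, the macrophage lysozyme, 848, 1923 and 624 CPM and 7864, 413 and 495 CPM. Neither passed the test (adjusted p = 0.480 and 0.888). Day 3 replicate 1 was above all naive libraries for both genes, replicate 3 for Ccr2, and replicate 2 for neither. The whole list held 0.380% to 0.540% of all naive brain reads and 1.41%, 0.614% and 1.11% at day 3. With replicate 1 alone its median was 2.88, with 18 of 20 members above the naive range, against 18.9% of all tested genes, and 0 called by limma. Of the 12 tested neutrophil genes, Il1r2, the decoy receptor for interleukin 1, was called, with 3.87, 0 and 1.39 CPM against 154, 30.0 and 22.5 CPM (4.41 ± 1.06, adjusted p = 0.0351). S100a8 and S100a9, the abundant calcium-binding proteins of neutrophils, reached 40.3 and 84.6 CPM in day 3 replicate 1 and did not pass (adjusted p = 0.0772 and 0.250).

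The Ifitm genes encode small membrane proteins, of which those of Ifitm1, Ifitm2 and Ifitm3 are induced by interferons and restrict virus entry. The Ifitm list had the highest median of all 32 lists, 2.84. Of 7 members, Ifitm1 and Ifitm2 rose and Ifitm10 fell. Ifitm1 measured 38.7, 1.29 and 0.497 CPM in naive brain and 1336, 315 and 222 CPM at day 3 (6.47 ± 1.18, adjusted p = 0.00499). Ifitm2 measured 80.6, 0.108 and 16.4 CPM and 2089, 318 and 214 CPM (5.49 ± 1.11, adjusted p = 0.0108), and it overlaps the predicted gene Gm45717. All day 3 libraries were above all naive libraries for both, with naive replicate 1 the highest of its group. Ifitm3 measured 229, 26.6 and 93.0 CPM in naive brain and 3107, 176 and 396 CPM at day 3, where replicate 2 fell inside the naive range (2.84 ± 0.88, adjusted p = 0.133). Ifitm10, which overlaps the predicted gene Gm49369, went from 293, 242 and 283 CPM to 73.2, 9.55 and 16.1 CPM (-3.52 ± 0.86, adjusted p = 0.0376).

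Of 20 other type I interferon response genes tested, limma called 0, 1 higher and 2 lower passed without adjustment (p under 0.05), edgeR called 0, and DESeq2 called 1 higher. Their median was -0.24, turned to 0.65 with unscaled totals, and was 1.40 with day 3 replicate 1 alone and -1.02 without it. Isg15, a ubiquitin-like protein, measured 2.71, 20.4 and 80.5 CPM in naive brain and 69.7, 16.8 and 1.61 CPM at day 3, and Ifit3, a restriction factor for viral RNA, 278, 36.7 and 203 CPM and 159, 25.5 and 24.1 CPM. The groups overlapped for both genes.

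Among 22 genes of the extracellular matrix and of wound repair, 2 rose and 0 fell, with a median of 1.66. Thbs1, the matricellular protein thrombospondin 1, which overlaps the antisense transcript Gm29233, measured 15.5, 0.431 and 0.794 CPM in naive brain and 532, 389.9 and 153 CPM at day 3 (6.51 ± 1.05, adjusted p = 0.00172). Fn1, which encodes fibronectin, measured 19.4, 2.80 and 1.29 CPM and 977, 161 and 94.8 CPM (5.46 ± 0.97, adjusted p = 0.00457). Both genes were above the naive range in all day 3 libraries. Col1a1, the collagen of fibroblasts, stayed between 1.90 and 24.6 CPM in all 6 libraries. Among 25 cytokines and chemokines, 1 rose and 2, Ifng and Ccl5, fell. The gene that rose was Ccl7, a chemoattractant for monocytes (5.15 ± 1.28, adjusted p = 0.0392) with 0, 0 and 10.9 CPM in naive brain and 868, 63.7 and 8.57 CPM at day 3. Its day 3 replicate 3 lay below naive replicate 3. Il1b, interleukin 1 beta, measured 53.9, 0.861 and 0.695 CPM and 615, 62.3 and 39.6 CPM, and Ccl2, the main ligand of Ccr2, 12.8, 191 and 159 CPM and 2729, 76.4 and 273 CPM. Neither passed (adjusted p = 0.0929 and 0.280), and both were highest in day 3 replicate 1.

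A few higher genes had their highest values in the high background libraries. The alpha globin genes Hba-a1 and Hba-a2, whose counts were the same in every library so that their reads may belong to either copy, measured 22.1, 3.45 and 0.894 CPM in naive brain and 75.1, 258 and 449 CPM at day 3 (5.16 ± 1.05, adjusted p = 0.0108). The beta globin gene Hbb-bs, with the same counts as Hbb-b1, went from 31.0, 2.58 and 6.45 CPM to 42.8, 228 and 561 CPM (4.23 ± 1.04, adjusted p = 0.0383). The 13 erythroid and platelet genes took at most 0.0115% of the reads in naive brain, and 0.0217%, 0.176% and 0.245% at day 3, with the higher shares in the high background libraries. With the background measure as a term in the model the list median was 1.74 and limma called 0 members. Without that term the median was 2.15, and 3 members were called. Whether the background gave rise to the globin reads was not tested. Dntt, the terminal transferase of developing lymphocytes, measured 3.87, 0 and 0 CPM and then 23.8, 59.1 and 107 CPM (5.0 ± 1.14, adjusted p = 0.0262), also highest in replicate 3. Il12a, a subunit of interleukin 12, measured 28.2, 29.6 and 50.3 CPM at day 3 against at most 1.16 CPM (4.51 ± 1.12, adjusted p = 0.0392). In 23 of the 31 higher genes, by contrast, day 3 replicate 1 held the highest value.

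Other genes also rose, of which Trem1, Dab2 and Apod, like Il12a and Hbb-b1 above, were chosen after their values were seen. Cd24a, a surface sialoglycoprotein, went from 4.65, 0 and 0.993 CPM to 294, 32.3 and 72.8 CPM (5.32 ± 1.16, adjusted p = 0.0188). Trem1, an activating receptor of monocytes and neutrophils, went from at most 0.993 CPM to 45.3, 59.6 and 11.8 CPM. Dab2, an endocytic adaptor, went from 5.81, 0.646 and 20.3 CPM to 274, 101 and 80.3 CPM, and Apod, an apolipoprotein, from at most 4.26 CPM to 97.6, 45.5 and 23.6 CPM. Cd200, the ligand of an inhibitory receptor on myeloid cells, was the single higher gene of the 16 in the inhibitory receptor and exhaustion list, with 14.3, 0.646 and 0.298 CPM against 120.1, 46.9 and 68.5 CPM (4.53 ± 1.10, adjusted p = 0.0373). For all of these the groups did not overlap.

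**Figure D3:**
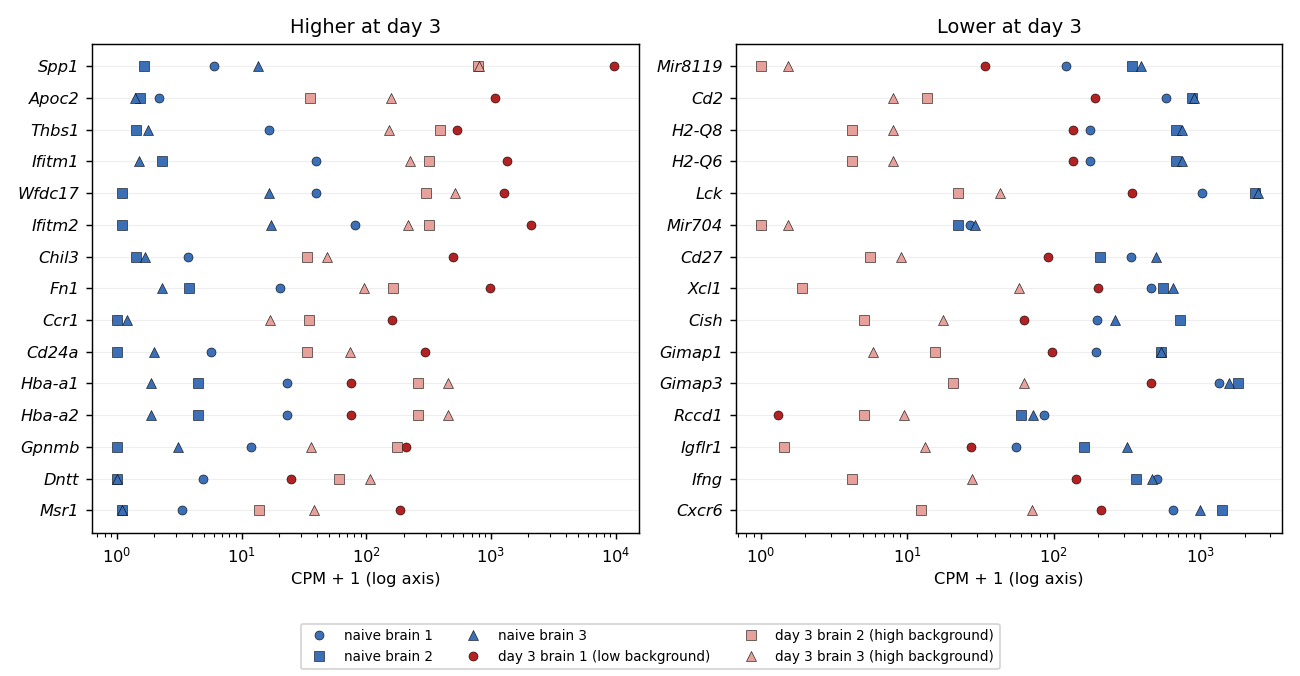
CPM plus 1 in each of the 6 libraries (log axes) for the 15 genes with the largest rise and the 15 with the largest fall among genes that passed the test, reached a mean of 10 CPM, had groups without overlap and were no predicted locus. In most higher genes day 3 replicate 1 (red) is the highest library, and in most lower genes it lies between naive brain (blue) and day 3 replicates 2 and 3 (pink).

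Promoters of some genes that rose or fell are shown so that their sequences can be set beside the values. These genes were picked by name without a rule and do not stand for the called genes, whose shares follow. Each line gives the 250 bases before a RefSeq start site (GRCm38.p6), 5′ to 3′ on the strand of the gene, with matches to 5 short motifs in capitals. The motifs were searched on both strands. That of ETS factors was GGAAGT, that of RUNX factors was TGTGGT, and the TATA box was TATAAA. The AP-1 motif was TGA and TCA with any 1 base between them, and the interferon-stimulated response element was GAAA on both sides of any 2 bases.
Spp1 (higher), chr5:104434861-104435110, plus strand: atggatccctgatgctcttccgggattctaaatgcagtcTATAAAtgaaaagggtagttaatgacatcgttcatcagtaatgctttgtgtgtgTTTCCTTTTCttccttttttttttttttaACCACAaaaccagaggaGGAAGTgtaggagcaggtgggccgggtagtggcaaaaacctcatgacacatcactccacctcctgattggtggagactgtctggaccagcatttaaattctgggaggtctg
Ifitm2 (higher), chr7:140955962-140956211, minus strand: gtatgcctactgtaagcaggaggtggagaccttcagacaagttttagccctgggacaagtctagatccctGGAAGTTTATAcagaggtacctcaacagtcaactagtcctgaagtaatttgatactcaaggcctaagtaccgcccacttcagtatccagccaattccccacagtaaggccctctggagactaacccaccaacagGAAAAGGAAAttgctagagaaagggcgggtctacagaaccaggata
Lck (lower), chr4:129573642-129573891, minus strand: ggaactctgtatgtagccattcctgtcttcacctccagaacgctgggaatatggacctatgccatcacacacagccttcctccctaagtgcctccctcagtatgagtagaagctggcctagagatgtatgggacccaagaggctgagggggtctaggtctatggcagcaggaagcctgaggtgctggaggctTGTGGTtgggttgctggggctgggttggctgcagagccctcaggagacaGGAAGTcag
Cd3e (lower), chr9:45009612-45009861, minus strand: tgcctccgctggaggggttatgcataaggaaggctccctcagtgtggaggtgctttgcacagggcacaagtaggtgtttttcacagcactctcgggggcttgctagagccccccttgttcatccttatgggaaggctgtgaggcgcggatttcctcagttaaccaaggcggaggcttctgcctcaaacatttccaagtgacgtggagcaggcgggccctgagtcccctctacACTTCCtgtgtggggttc

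In the printed Spp1 window the ETS match began 111 bases before the start site, the RUNX match 128, the interferon element 157 and the TATA match 211. The other Spp1 window (chr5:104435942-104436191), not printed, held no match. The Ifitm2 window held an interferon element 46 bases before the start and an ETS and a TATA match that share 1 letter, at 180 and 175. The printed Lck window held an ETS match 9 bases and a RUNX match 58 bases before the start. The other Lck window (chr4:129558373-129558622), not printed, held an ETS match at 113 and no RUNX match. The Cd3e window held an ETS match at 18. RefSeq promoters were found for 62 of the 103 lower genes (83 windows) and 21 of the 31 higher genes (24 windows). The ETS motif was in 27.7% of the lower, 20.8% of the higher and 21.3% of all 17298 windows of tested genes, and the RUNX motif in 19.3%, 25% and 11.6%. The interferon element was in 3.61%, 12.5% and 2.69%, the AP-1 motif in 6.02%, 4.17% and 5.66%, and the TATA motif in 8.43%, 12.5% and 8.7%. A match of this kind is a description of letters and was not tested for binding.

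Genes of the T cell receptor complex and CD8 were lower at day 3. Of the 6 measured members 5 were called, against 0.54% of all tested genes, and the list median was -2.93. All 6 were abundant, with naive means of 353 to 2096 CPM. Of the 3263 tested genes of at least 100 CPM, 96 were called lower, and their median was -1.39. With day 3 replicate 1 alone the median was -1.50, and with the background measure as a term in the model -1.65, and limma called 0 members in either fit, as did edgeR with all libraries, while DESeq2 called 3 lower. At an unadjusted p under 0.05 all libraries gave 6 lower. In bulk samples such as these, fewer cells of a type and less RNA per cell cannot be told apart. Cd3e, a signalling chain of the receptor, measured 746, 1784 and 1544 CPM in naive brain and 429, 44.1 and 27.8 CPM at day 3 (-3.95 ± 0.85, adjusted p = 0.0155). Cd3g measured 1268, 1821 and 2152 CPM and 494, 44.1 and 132 CPM (-3.57 ± 0.73, adjusted p = 0.0108), and Cd8b1, the second chain of CD8, 1803, 2137 and 2349 CPM and 825, 81.4 and 326 CPM (-2.89 ± 0.74, adjusted p = 0.0479). All 6 genes lay below naive brain in every day 3 library, as did 9.94% of all tested genes. Replicate 1 was the highest day 3 library for each of those named. Cd8a, with the values given above, narrowly missed the threshold (-2.76 ± 0.72, adjusted p = 0.0530).

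The kinases and adaptors behind the receptor followed, with 7 of 18 lower and a median of -2.69, or -1.30 with 0 called for day 3 replicate 1 alone. Lck, the kinase that starts receptor signalling (chr4:129548344-129573641), measured 1019, 2345 and 2450.3 CPM in naive brain and 339.8, 21.4 and 41.8 CPM at day 3 (-4.71 ± 0.78, adjusted p = 0.00212). Lat, the adaptor onto which the signal assembles, measured 599, 941 and 1108 CPM and 207, 15 and 49.8 CPM (-3.95 ± 0.75, adjusted p = 0.00695). Zap70, the second kinase, measured 261, 161 and 197 CPM and 54.8, 9.10 and 19.8 CPM (-3.16 ± 0.75, adjusted p = 0.0333). Rasgrp1, which activates Ras downstream, was as low in replicate 1 as in the others, with 287, 155 and 271 CPM against 31.1, 23.2 and 25.7 CPM (-3.07 ± 0.70, adjusted p = 0.0262). The day 3 and naive values did not overlap for any of these 4 genes, and 13 of 18 list members were below the naive range in replicate 1, against 20.8% of all tested genes.

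Of 20 costimulatory and adhesion receptors 6 fell, with a median of -2.29, or -0.79 with 0 called for day 3 replicate 1 alone. They were led by Cd2, an adhesion receptor of T cells, with 582, 872 and 897 CPM in naive brain and 190.2, 12.7 and 6.96 CPM at day 3 (-4.81 ± 0.84, adjusted p = 0.00405). Cd27, a costimulatory receptor of the tumour necrosis factor receptor family that overlaps Vamp1 on the opposite strand, measured 337, 207 and 499.8 CPM and 90.3, 4.55 and 8.03 CPM (-4.30 ± 0.83, adjusted p = 0.00824). Sh2d1a, the adaptor SAP, Cd6, Cd226 and Thy1 made up the rest, with differences of -4.01 to -2.91. Of 8 Gimap genes, which encode GTPases of lymphocyte survival and lie together on chromosome 6, 6 fell, and the list median of -3.16 was the lowest of the 32 lists with all libraries. With day 3 replicate 1 alone it was -1.43 with 0 called, above the -1.50 of the T cell receptor list, and with the background term -1.64 with 0 called. Gimap3 measured 1338, 1793 and 1572 CPM and 461, 19.6 and 61.6 CPM (-4.21 ± 0.78, adjusted p = 0.00499). Gimap1, Gimap5 and Gimap7 overlap the readthrough gene Gm28053, so their reads cannot be told apart from its own. In replicate 1, 7 of the 8 Gimap genes were below the naive range, against 20.8% of all tested genes.

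Of 22 cytotoxic effector genes, 6 fell and 0 rose, with a median of -2.09. The median was -0.91 with day 3 replicate 1 alone and -0.37 with the background term, with 0 called in either fit. Nkg7, a granule membrane protein, measured 6775, 5945 and 7547 CPM in naive brain and 2393, 91.0 and 412 CPM at day 3 (-3.90 ± 0.75, adjusted p = 0.00824). Ccl5, a chemokine of effector T cells, measured 12334, 8289 and 11847 CPM and 4094, 176 and 598 CPM (-3.82 ± 0.74, adjusted p = 0.00872). Ifng, which encodes interferon gamma, measured 503, 363 and 468 CPM and 139.8, 3.18 and 26.8 CPM (-4.12 ± 0.97, adjusted p = 0.0329). All 3 genes stepped down from naive brain to replicate 1 and again to replicates 2 and 3. Xcl1, a chemokine for cross-presenting dendritic cells, measured 459.5, 558 and 646 CPM and 199.7, 0.910 and 57.3 CPM (-4.29 ± 0.97, adjusted p = 0.0260), and Cst7 and Ctsw were also called. The killing proteins themselves were not called. Gzmb, granzyme B, measured 176, 373 and 767 CPM and 148, 32.8 and 53.6 CPM (-2.51 ± 0.97, adjusted p = 0.249), and Prf1, perforin, varied from 6.06 to 199 CPM within naive brain (adjusted p = 0.570).

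Genes of tissue-resident memory cells, T cells that stay in an organ without recirculating, did not move as one. Of 17 tested, 4 fell, namely Cxcr6, Inpp4b, Xcl1 and Ppp1r15a, and the median of -1.32 became 0.26 with day 3 replicate 1 alone. Cxcr6, a chemokine receptor of resident cells, measured 652, 1395 and 989.9 CPM in naive brain and 209.8, 11.4 and 69.6 CPM at day 3 (-4.09 ± 0.82, adjusted p = 0.0108), and it lies within Fyco1 on the opposite strand. Inpp4b, a phosphoinositide phosphatase, was low in all day 3 libraries, with 148, 436 and 409 CPM against 29.5, 17.7 and 41.8 CPM (-3.36 ± 0.70, adjusted p = 0.0119). Cd69, which holds T cells in tissue, measured 742, 1067 and 572 CPM and 678, 92.3 and 351 CPM, so that replicate 1 lay inside the naive range (adjusted p = 0.361). Itgae, the integrin CD103, measured 12, 40.6 and 14.1 CPM and 58.6, 29.1 and 26.8 CPM (0.87 ± 0.83, adjusted p = 0.568).

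Other T cell programmes gave fewer calls. Of 16 T cell transcription factors 2 fell, Stat4, which relays interleukin 12, and Tox, a factor of chronic stimulation, while Bcl11b, Runx3, Ets1 and Id2 did not pass (adjusted p = 0.0530 to 0.406). Tox measured 94.5, 110.5 and 98.4 CPM in naive brain and 16.5, 5.0 and 11.8 CPM at day 3 (-3.21 ± 0.79, adjusted p = 0.0392). Of 18 genes of the common gamma chain cytokine system 3 fell. These were Il2rb, a receptor chain for interleukins 2 and 15, Bcl2, a survival protein, and Cish, a feedback inhibitor of the receptors, with 196, 722 and 259 CPM against 61.8, 4.09 and 16.6 CPM (-4.23 ± 0.91, adjusted p = 0.0165). The groups did not overlap for Tox or Cish. Of the 16 inhibitory receptor and exhaustion genes Tigit and Tox fell, and Pdcd1 (PD-1), Ctla4 and Lag3 did not pass (adjusted p = 0.216 to 0.360). Of 17 naive and recirculating T cell genes limma called 0, with 9 lower at an unadjusted p under 0.05, edgeR called 0 and DESeq2 called 2 lower.

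Immediate early genes, which cells switch on within minutes of stimulation or handling, were lower in part. Of 21, 3 fell, namely Junb, Egr1 and Dusp2, with a median of -1.92, or -0.37 with day 3 replicate 1 alone. Dusp2, a phosphatase that limits MAP kinases, measured 1169.7, 1809 and 2098 CPM in naive brain and 512, 17.7 and 98.5 CPM at day 3 (-4.06 ± 0.84, adjusted p = 0.0114). Fos and Jun, the AP-1 subunits, measured 4989, 7851 and 17498 CPM and 2443, 6906 and 12283 CPM in naive brain. At day 3 they measured 5048, 1014 and 822 CPM and 1658, 910.3 and 319 CPM, and neither passed (adjusted p = 0.129 and 0.0505). Of 12 heat shock genes Hsph1 was called, with 160.4, 391 and 486 CPM against 20.9, 52.3 and 9.10 CPM (-3.78 ± 0.77, adjusted p = 0.0108), a fall as large in replicate 1 as in the others.

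Homeostatic microglia genes also had negative differences, in contrast to the injury-associated list. Of 18, 2 fell, and all 18 differences were negative with a median of -2.28. Tmem119, a surface protein particular to microglia within the brain, measured 538, 851 and 2447 CPM in naive brain and 396, 16.8 and 35.3 CPM at day 3 (-4.03 ± 0.92, adjusted p = 0.0262). Cst3, a secreted protease inhibitor, measured 27306, 15693 and 57198 CPM and 14296, 1019 and 2658 CPM (-3.10 ± 0.74, adjusted p = 0.0344). For both, replicate 1 was below the lowest naive library and replicates 2 and 3 were far lower still. With replicate 1 alone the list median was -0.17, and limma called 0. In that library 4 of 18 members were below the naive range and 3 above it, near the 20.8% and 18.9% of all tested genes. C1qb, a complement chain, measured 4859, 3989 and 12572 CPM and 8898, 321 and 1411 CPM, with replicate 1 inside the naive range (adjusted p = 0.265).

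MHC class II and dendritic cell genes, which serve the presentation of antigen to helper T cells, took a larger share of the reads in all 3 day 3 libraries (2.66%, 0.809% and 0.892%) than in naive brain (0.458%, 0.690% and 0.531%), with the highest share in replicate 1. H2-Aa measured 818, 1188 and 974 CPM in naive brain and 9408, 676 and 1282 CPM at day 3 (1.04 ± 0.88, adjusted p = 0.529). Cd74, the invariant chain, measured 1907, 3515 and 3045 CPM and 13624, 701 and 1196 CPM (-0.28 ± 0.77, adjusted p = 0.835). Of the 17 genes of this list limma called 0, with 3 higher and 0 lower without adjustment (p under 0.05), and edgeR and DESeq2 called 0. In replicate 1, 13 of 17 were above the naive range, against 18.9% of all tested genes, and the list median was 2.43, against 0.52 over all 3 day 3 libraries and -0.08 without replicate 1. Some MHC class I genes were called lower; they were picked for that call, and the class as a whole was not tallied. H2-D1 measured 4614, 12383 and 12586 CPM in naive brain and 4005, 619 and 808 CPM at day 3 (-2.83 ± 0.72, adjusted p = 0.0458). H2-Q7, with the same counts as H2-Q9, measured 2121, 3254 and 3798 CPM and 887, 79.2 and 223 CPM (-3.56 ± 0.71, adjusted p = 0.0108), and the groups did not overlap for either gene. H2-L and the pair H2-Q6 and H2-Q8 were also called lower, and reads of these near-identical genes may be split between copies.

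**Figure D4:**
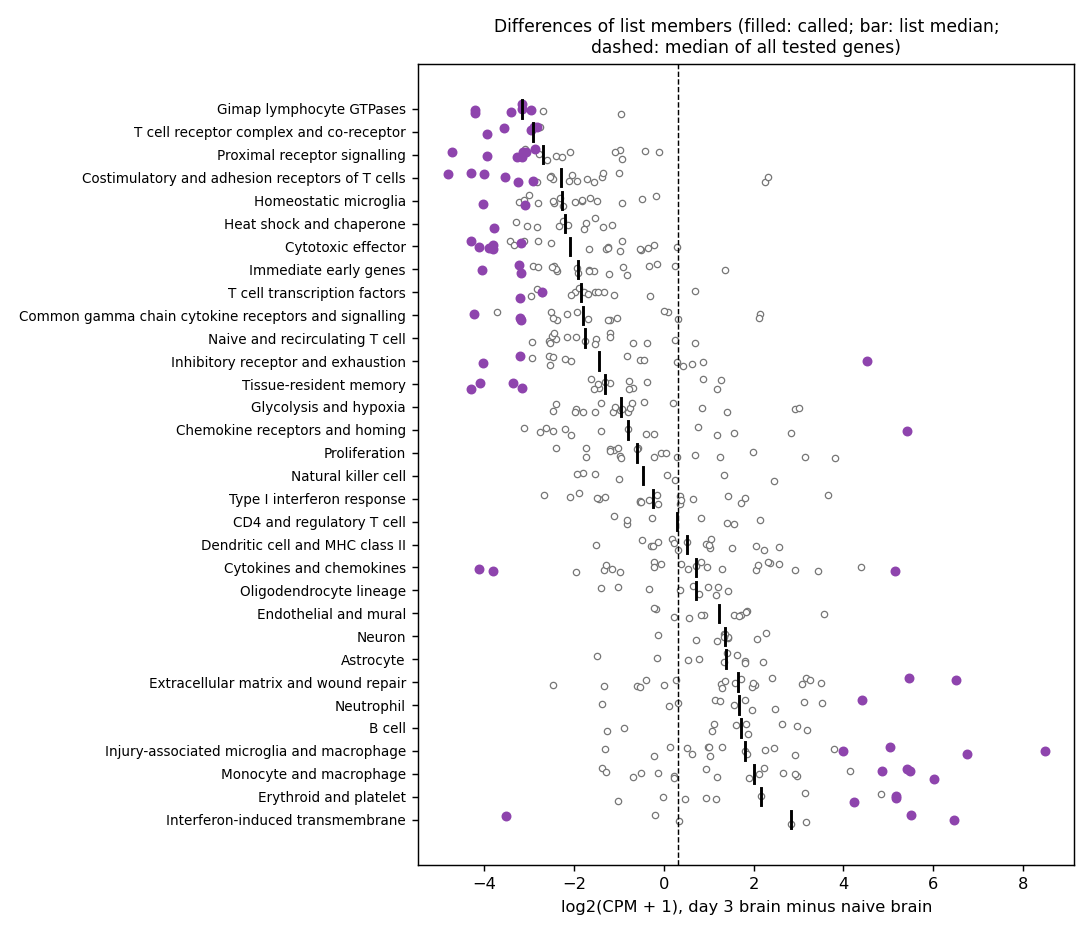
Difference of each tested member of 32 gene lists, day 3 minus naive brain on the log2(CPM + 1) scale, with called members filled, the list median as a bar and the median of all tested genes (0.32) dashed. The Gimap and T cell receptor lists have the lowest medians (-3.16 and -2.93) and the interferon-induced transmembrane list the highest (2.84); centred on T cell receptor complex and CD8 genes, 31 of the 32 medians are above 0.

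Lists of proliferation, glycolysis, natural killer, B cell, helper and regulatory T cell, endothelial, astrocyte, oligodendrocyte and neuron genes had no member that limma called. At an unadjusted p under 0.05, glycolysis had 2 higher and 5 lower of 20 and proliferation 2 higher and 2 lower of 20, and DESeq2 called 2 and 1 of them higher. For the B cell, CD4, natural killer, endothelial and neuron lists the unadjusted counts were at most 3 higher and 1 lower, and for astrocyte and oligodendrocyte genes 0. DESeq2 called 1 endothelial and 2 neuron genes higher, and edgeR called 0 in all of these lists. Neuron genes took 0.00116% of the reads in day 3 replicate 1, within the 0.000814% to 0.00300% of naive brain, and 0.0257% and 0.0151% in the high background replicates 2 and 3. Mki67, the marker of cycling cells, ranged from 14.3 to 496 CPM within naive brain and from 36.4 to 96.4 CPM at day 3. The median of the proliferation list was -0.60 with the deposited scaling and 0.33 with unscaled totals.

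Among the 15 largest falls were 2 microRNA loci within other genes. Mir8119 lies inside Lck on the same strand (chr4:129557683-129557811) and measured 119, 338 and 392 CPM in naive brain and 33.0, 0 and 0.536 CPM at day 3 (-6.08 ± 1.37, adjusted p = 0.0246). Mir704 lies inside Pdia4, an endoplasmic reticulum chaperone, and measured 26.0, 21.3 and 27.9 CPM and 0, 0 and 0.536 CPM (-4.49 ± 1.02, adjusted p = 0.0262). Reads from the locus and from the host transcript cannot be told apart here, and the pattern of Mir8119 across libraries has the same order as that of Lck. Igflr1, a receptor found on T cells, was also low in day 3 replicate 2, with 54.6, 161 and 315 CPM against 26.3, 0.455 and 12.3 CPM. Rccd1 differed from most lower genes in that replicate 1 was the lowest library, with 84.9, 58.5 and 70.7 CPM against 0.317, 4.09 and 8.57 CPM (-4.16 ± 1.03, adjusted p = 0.0391).

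Across the 103 lower genes, replicate 1 was the highest day 3 library for 88, and replicate 2 the lowest for 78. With the deposited scaling, the naive mean exceeded replicate 1 by a median of 3.58 times (interquartile range 2.77 to 5.36). It exceeded the mean of replicates 2 and 3 by a median of 18.2 times. In replicate 1 taken alone, 100 of the 103 lower genes lay below the naive range and all 31 higher genes above it. That library was also used to call these genes, so these counts are a description. Refitted with replicate 1 as the only day 3 library, limma called 2 genes higher and 0 lower (0% of tested genes), and 414 and 268 genes passed an unadjusted p of 0.05 in these directions. Without replicate 1 it called 43 higher and 663 lower. List medians not yet given for replicate 1 alone were 5.21 for the Ifitm genes, 1.28 for erythroid and platelet genes, 0.90 for matrix and wound repair genes, 2.52 for cytokines and 0.79 for neutrophil genes. They were -1.08 for T cell transcription factors, -1.02 for heat shock genes, -0.85 for naive and recirculating, -0.70 for inhibitory and -0.67 for gamma chain genes. The median of all tested genes was then -0.11. The size of a difference thus depended on which day 3 libraries were used, and for the lower genes it was larger in the 2 libraries of high background, whose part in these results cannot be told apart from the stroke in those libraries.

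**Figure D5:**
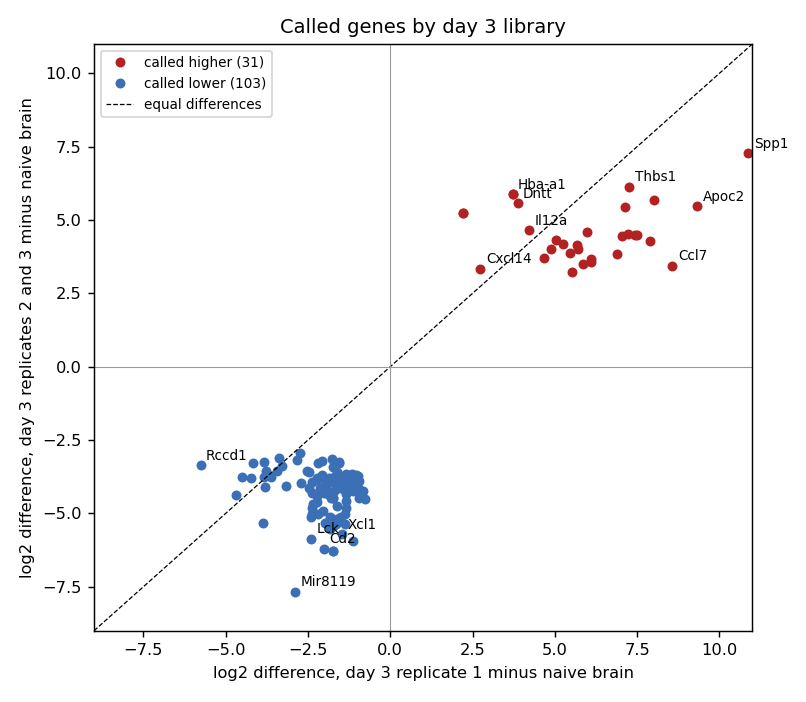
Difference of each called gene in day 3 replicate 1 alone (x axis) and in day 3 replicates 2 and 3 (y axis), each minus naive brain on the log2(CPM + 1) scale. Most of the 31 higher genes lie below the line of equal differences and most of the 103 lower genes below it too, so that rises were larger in replicate 1 and falls larger in replicates 2 and 3.

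A set of 35 genes had no read in any naive brain library and at least 3 reads in each day 3 library. The opposite pattern was found in 0 genes. Genes with a read numbered 20937, 17502 and 19070 in naive brain replicates 1, 2 and 3 and 18763, 22997 and 22905 at day 3. The 35 genes could pass the expression filter only through the day 3 libraries, so both counts are a description. With the highest day 3 levels among them were Hcar2, a receptor for ketone bodies and niacin on myeloid cells, with 54.2, 3.18 and 4.82 CPM, and Ccl8, a monocyte chemoattractant, with 5.07, 2.73 and 38.6 CPM. Tm4sf5, AI839979 and Gpr33 followed, with 2.14 to 22.8 CPM. A count of 0 allows up to 1.16, 0.323 and 0.298 CPM in naive brain replicates 1, 2 and 3, the value of 3 reads, which covers counting error only. None of these 5 genes passed the test (limma, adjusted p = 0.126 to 0.223).

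The tests differed in how many genes they called. On the recovered reads, edgeR called 8 genes higher and 0 lower, and 883 and 1164 passed without adjustment. Its calls included Spp1, Apoc2, Chil3, Ccr1, Thbs1 and Fn1. DESeq2 called 520 higher and 175 lower, and these included 30 of the 31 higher and 69 of the 103 lower genes. With the background measure as a term in the limma model, Spp1 was the 1 gene that remained called (9.22, adjusted p = 0.0257). Lck then differed by -2.65 with an adjusted p = 0.224.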

How the data were processed

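The values were the deposited signal per gene, which is CPM of a library size the authors had scaled, since columns sum to between 526580 and 2086823 and not to 1 shared total. FastQC 0.11.2, STAR 2.5.3a, featureCounts, edgeR and the build mm10 are named per the submitters' processing notes; the labels do not state strand use in counting. The SMART-Seq libraries carry no molecular identifiers, so counting limits cover counting error only. Every value was a whole multiple of the worth of 1 read (100% within 1e-06 reads), which gave depths of 1157538 to 21014171 reads in the 6 libraries.

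Genes reaching 1 CPM in at least 3 of the 6 libraries were tested on log2(CPM + 1) with limma 3.58.1 (R 4.3.3) over all 12 libraries, which share 1 estimate of the spread, with a mean-variance trend and Benjamini-Hochberg adjustment at 0.05 over 19063 genes. The design assumed plain CPM, and the same test was kept for the scaled values. edgeR 4.0.16 and DESeq2 1.42.0 on recovered reads, other scalings, filters and pseudocounts, and leaving out each library were alternatives. The fit with day 3 replicate 1 alone was chosen after seeing the data, and assumes that this library varies like the other groups.

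Named genes were up to 15 a direction with the largest difference among called genes without overlap, reaching a group mean of 10 CPM and being no predicted locus, up to 6 members of each of 32 lists plus its defining members, and up to 5 with no read in 1 group. Other genes are said to be outside this rule. Members and lists were chosen with earlier results of these data known. Of 300 named symbols, 291 were located in GENCODE vM21, and promoters come from RefSeq.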

Additional observations from a re-analysis of the deposited data

How the results depend on the processing

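The 134 called genes kept their direction in more settings than their calls. They were selected for large differences in these same libraries, at least 3.14 or at most -2.67 (log2). Kept signs were thus largely fixed by that selection and are a description. All 134 kept their sign wherever they were tested, except when centred on the T cell receptor complex and CD8 genes, which turned 29 lower genes to small positive differences (log2): Arhgef1 0.49, Hmha1 0.48, Stat4 0.45, Ccnd2 0.36, Ms4a4b 0.35, H2-D1 0.33, Cd247 0.33, Il16 0.31, Prkcq 0.28, Cd8b1 0.27, Thy1 0.25, Akna 0.24, Cnn2 0.23, Gimap6 0.20, Cd3d 0.20, Bin2 0.10, AW112010 0.095, Rasgrp1 0.092, Tmem66 0.074, Tnfaip3 0.067, Cst3 0.060, Sp100 0.054, Ndfip1 0.023, Sh2d2a 0.022, Tbc1d10c 0.012, Ppp1r15a 0.0095, Gimap4 0.0029, Zap70 0.00060 and Dgka 5.3e-05. The shift follows from holding those T cell genes at a mean of 0.

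Counts of called genes moved with the settings. Against 134 (31 higher, 103 lower), they were 24 (5 and 19) with a pseudocount of 0.1, 184 (42 and 142) with 5, 45 (15 and 30) without a filter on low values and 67 (21 and 46) with a stricter one. By scaling, library totals alone gave 185 (89 and 96), centring on the median 278 (27 and 251), quantile normalization 62 (26 and 36) and the T cell centring 14239 (14236 and 3). By test they were 207 (39 and 168) with only the 6 libraries, 695 (520 and 175) with DESeq2, 9949 (5870 and 4079) with library quality weights, 8 (8 and 0) with edgeR and 5 (5 and 0) with no trend. With no trend, 1277 and 1224 passed without adjustment. The background measure as a term left 1 (1 and 0; 625 and 427 unadjusted), the low background libraries alone gave 3 (3 and 0; 335 and 321 unadjusted), and day 3 replicate 1 alone gave 2 (2 and 0). Leaving out 1 library gave 7 to 706 in all, 4 to 43 higher and 3 to 663 lower, lowest without naive brain replicate 2. The most came without day 3 replicate 1 (663 lower, 43 higher, the latter also without day 30 replicate 1). The cause was not tested.

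With the replicate number as a block the count was 260 (43 and 217). Same-numbered naive and day 3 libraries deviated from their group means in opposite directions (r = -0.449, -0.160 and -0.215). These values depend on which library stands apart in each group. They cannot decide whether the numbers pair the samples. DESeq2 gave no adjusted p for 5 called genes. The depth of day 3 replicates 2 and 3 limits genes under 1.36 and 1.61 CPM, the worth of 3 reads.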
